A study of Mus musculus with 16 samples.

Results

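Gene expression of mature and immature medullary thymic epithelial cells (mTEC) was compared in the control mice of a study of the splicing factors RBFOX1 and RBFOX2 in the thymus. The members were the 8 libraries whose labels name a floxed mouse without the deleting driver, 4 from mature and 4 from immature mTEC, out of 16 libraries in the series. These 8 libraries came from 4 of the 8 mice, and each of these mice gave 1 library of each population, so that the populations were compared within mouse. Of 53464 Ensembl genes in the count table, 14962 had enough counts to be tested, and values are given for those.

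The control mice carried Rbfox1 lox/lox or Rbfox2 lox/lox alleles with Foxn1 wildtype/wildtype, which is to say that they had the floxed alleles but not the Foxn1-driven Cre by which the tKO mice of each line lost the gene in thymic epithelium. Each line gave 1 female and 1 male control mouse, with a labelled age of 4 to 6 weeks. The strain label reads C57BL/6, but by the methods the mice were crosses of 129S2/Sv with C57BL/6J. Cells that were CD45- EpCAM+ Ly51- UEA+ were sorted as MHCII high (mature) or MHCII low (immature), with 10000 cells per population, so a difference in MHC class II transcripts was built into the gate. In the text the values of the 4 mice follow 1 order, Rbfox1-line replicates 2 and 3 and then Rbfox2-line replicates 1 and 2. Unless stated otherwise, levels are in CPM, the counts of a gene relative to the TMM-scaled total of its library, and fold changes are log2 of mature over immature with their standard error (SE).

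Medullary epithelial cells teach developing T cells which proteins belong to the body. Immature mTEC line the medulla, secrete chemokines that draw in thymocytes and renew the compartment. Mature mTEC carry more MHC class II and costimulatory ligands, and with the nuclear regulator AIRE they transcribe many genes whose products otherwise mark a single peripheral tissue. Some mTEC also take on programmes that resemble tuft, secretory, ciliated, muscle or keratinised cells.

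Library totals ran from 4024877 to 4636367 counts in mature and from 1740155 to 2430287 counts in immature mTEC. The authors down-sampled the 2 populations to different depths, but by a smaller factor than that between these totals. The source of the rest of the difference was not tested. Depth and population therefore go together, and counts thinned to 1740155 per library are used wherever detected genes are counted. A gene with 0 counts in all 4 immature libraries could still have stood at up to 0.355 CPM on average, taking 3 counts over the group as the limit, for counting error only. A low count does not show that a gene was silent in these cells, because Chd4 and Atf4, which are used by nearly every cell, had between 0 and 3 counts in each of the 8 libraries and were not tested (named after their values were seen). In bulk samples such as these, fewer cells of a kind and less RNA per cell cannot be told apart.

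The sorted antigens were read first as a check of the labels. H2-Aa, an MHC class II chain on which the sort rested, stood at 4344, 4312, 4942 and 5080 CPM in mature against 2319, 2490, 2715 and 2667 CPM in immature mTEC. Epcam, the epithelial adhesion molecule required by the gate, stood at 589 to 648 CPM in mature against 738 to 811 CPM in immature mTEC. The MHC class II difference had the direction of the gate in every mouse, and both populations carried Epcam abundantly. Of the 6 sorted antigens tested 2 were called higher, while 3 were higher and 1 lower by less than 2-fold. H2-Aa, at a log2 change of 0.87, was not among the calls. The transcripts of 2 antigens used for exclusion, Enpep here and Ptprc below, were higher in mature mTEC. Enpep, which encodes the Ly51 antigen used for exclusion, was present at 45.0, 43.5, 32.1 and 38.4 CPM in mature against 9.44, 8.19, 4.90 and 12.8 CPM in immature mTEC. Both genes targeted in the parent study were transcribed in these mice. Rbfox1 stood at 53.0, 49.1, 46.5 and 50.1 CPM in mature against 164, 160, 120 and 117 CPM in immature mTEC (log2 −1.49, SE 0.10, edgeR quasi-likelihood test adjusted p = 9.56e-08). Rbfox2 was lower by less than 2-fold, with 57.6 to 68.8 CPM in mature against 95.3 to 115 CPM in immature mTEC (log2 −0.76, SE 0.08).

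More genes were higher in mature than in immature mTEC, and most of this excess lay among genes of low level. A gene was called higher or lower where the edgeR quasi-likelihood test, paired by mouse, gave a Benjamini-Hochberg adjusted p under 0.05 and the change was over 2-fold. Of the 14962 Ensembl genes tested, 3375 were higher in mature mTEC (22.6%) and 1602 were lower (10.7%), which together make 33.3%. Over all 15357 rows of the table that were tested, assembled loci included, 34.4% were called. At any fold, 64.4% of Ensembl genes had an adjusted p under 0.05, and for 56.6% the 4 mature values did not overlap the 4 immature values. With every library thinned to the total of the smallest, 2637 were higher and 1449 lower. Among the 11013 genes with at least 10 counts in every library the excess was gone, with 1045 higher and 1083 lower. The median change over all Ensembl genes tested was 0.01 on the log2 scale, which is the level against which each list below should be read. Counts of calls in a list should likewise be read against the shares of 22.6% higher and 10.7% lower.

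The genes on either side differed in size of change and in level. Genes higher in mature mTEC had a median log2 change of 2.65, and 1457 of them differed by over 8-fold. Their median level was 15.7 CPM in mature against 2.28 CPM in immature mTEC, 1081 of them averaged under 1 CPM in immature mTEC, and 151 had no count in any immature library. Genes of this last kind entered the test through the mature libraries alone, and so could differ in 1 direction only. Genes lower in mature mTEC had a median log2 change of −1.58, 136 differed by over 8-fold, and none had 0 counts in all 4 mature libraries. Their median level was 44.1 CPM in immature and 13 CPM in mature mTEC. Among protein-coding genes averaging above 100 CPM over both populations, 10.9% were higher and 13% lower in mature mTEC.

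**Figure D1:**
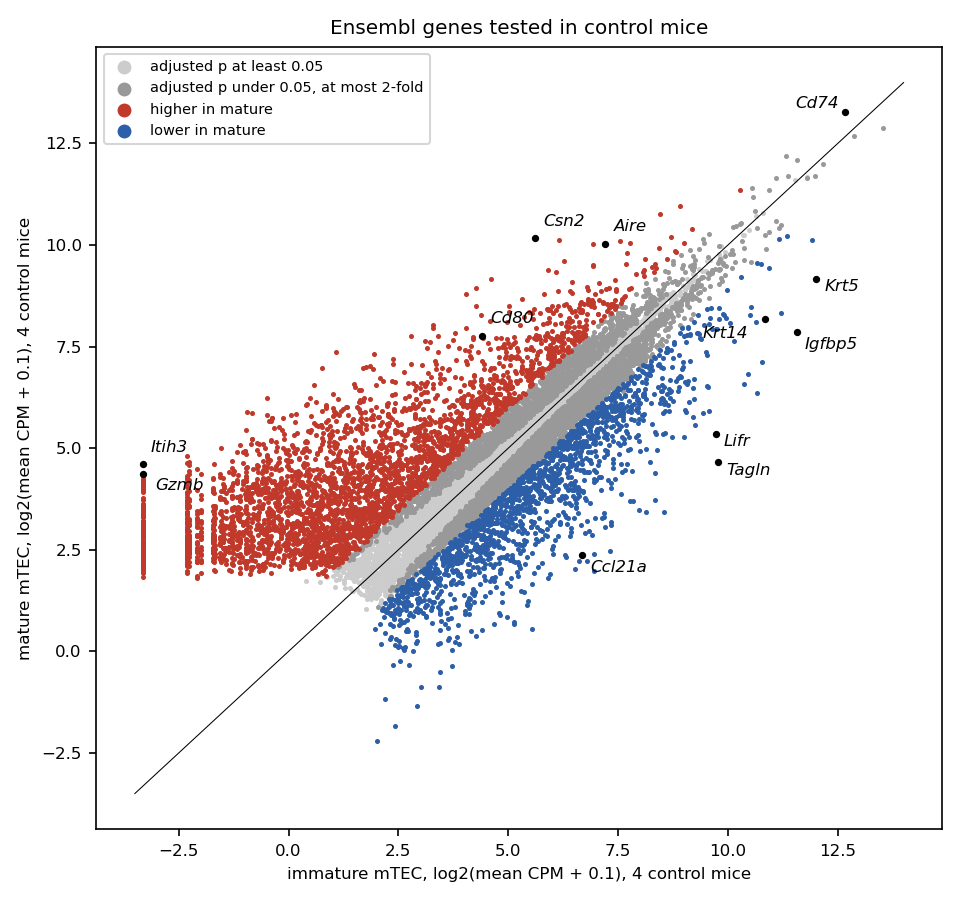
Mean level of each of 14962 Ensembl genes in immature mTEC (horizontal axis) and mature mTEC (vertical axis), as log2 of the mean CPM of 4 control mice plus 0.1. Genes higher in mature mTEC (3375, red) lie mostly at low immature levels with a column at the left edge for the 151 genes without a count in immature mTEC, and genes lower in mature mTEC (1602, blue) lie mostly to the right.

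The number of genes with any read also differed. After thinning to equal depth, 17361 to 17751 of 21942 protein-coding genes had at least 1 count in mature mTEC (mean 17518 ± 165, SD, n = 4 mice) and 14648 to 15340 did in immature mTEC (mean 15030 ± 291, SD, n = 4 mice). Every mature library had more detected genes than every immature library. The difference within mouse averaged 2487.5 genes, with 2346 the smallest and 2713 the largest, and the exact two-sided sign-flip permutation test gave p = 0.125, the smallest p that 4 mice allow. The 100 most abundant genes held 15% to 16.1% of counts in mature and 15.7% to 18.2% in immature mTEC. The most abundant transcripts were largely shared: Cd74, the invariant chain of MHC class II, averaged 9969 CPM in mature against 6513 CPM in immature mTEC, and Fcgbp, an IgG Fc binding protein of mucus, averaged 7568 and 11871 CPM. Both changed by less than 2-fold, and the groups overlapped for Fcgbp.

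The transcripts that define maturation were higher in the mature population. Of 13 tested markers of mature mTEC, 11 were called higher and none lower, with a median log2 change of 2.18 against 0.01 over all genes. Aire, the regulator of tissue antigen transcription, stood at 1247, 1585, 643 and 695 CPM in mature against 214, 299, 41.4 and 36.4 CPM in immature mTEC (log2 3.11, SE 0.25, edgeR adjusted p = 4.52e-07). The groups did not overlap, and the Rbfox1-line mice had more Aire than the Rbfox2-line mice in both populations. Cd80 and Cd86, the ligands of CD28 on T cells, were both higher. Cd80 stood at 254, 241, 191 and 183 CPM in mature against 32.2, 34.8, 13.1 and 4.25 CPM in immature mTEC (log2 3.37, SE 0.23). Cd86 stood at 27.9 to 33.0 CPM in mature against 0 to 1.64 CPM in immature mTEC (log2 4.95, SE 0.32). Ubd, a ubiquitin-like modifier and the most abundant called gene of this list, stood at 1597 to 1860 CPM against 301 to 422 CPM (log2 2.33, SE 0.10).

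Among 21 tested genes credited with a part in promiscuous expression, few besides AIRE itself differed by over 2-fold. Sirt1, a deacetylase that acts on AIRE, was the most changed, at 659, 792, 549 and 604 CPM in mature against 76.8, 99.9, 43.5 and 51.0 CPM in immature mTEC (log2 3.29, SE 0.11, edgeR adjusted p = 6.41e-10). Fezf2, a second regulator of tissue antigens, stood at 596 to 684 CPM against 215 to 311 CPM (log2 1.28, SE 0.10). Xrcc5, the Ku80 subunit of the DNA-dependent protein kinase, was the single member called lower (log2 −1.60, SE 0.12), and the median over the list was −0.13.

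MHC class II genes were higher by modest factors, with a few larger exceptions. Of 15 tested genes of this pathway 5 were called higher (33.3%, against 22.6% over all genes) and none lower, with a median log2 change of 0.61. H2-Eb2, a non-classical beta chain, stood apart with 1059, 1043, 1036 and 1033 CPM in mature against 140, 182, 83.3 and 83.2 CPM in immature mTEC (log2 3.14, SE 0.16, edgeR adjusted p = 1.20e-08). H2-Oa and H2-Ob, which together form the modulator of peptide loading, had log2 changes of 1.87 (SE 0.09) and 1.94 (SE 0.12). Ctss, the protease that trims the invariant chain, stood at 235 to 304 CPM against 69.6 to 75.5 CPM (log2 1.87, SE 0.08). The classical chains H2-Aa and H2-Ab1 differed by less than 2-fold (log2 0.87 and 0.52). Of 16 tested MHC class I and immunoproteasome genes none was called in either direction, and the median was 0.01.

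Ligands and signal carriers of costimulation and of NF-kB, the pathway by which thymocytes drive mTEC maturation, were divided. Of 16 tested costimulatory and inhibitory ligands 7 were higher (43.8%) and 2 lower (12.5%), the latter near the 10.7% over all genes. Beside Cd80 and Cd86, Cd83, which keeps MHC class II at the surface, stood at 38 to 50.02 CPM against 2.72 to 7.37 CPM (log2 3.23, SE 0.19). Lgals9, the lectin ligand of TIM-3, went the other way, at 91.1, 71.2, 112 and 109 CPM in mature against 461, 440, 635 and 610 CPM in immature mTEC (log2 −2.49, SE 0.08, edgeR adjusted p = 3.09e-10). Of 26 tested genes of the TNF receptor and NF-kB pathway 8 were higher (30.8%) and 2 lower (7.7%). These shares were near those over all genes, 22.6% and 10.7%. The higher ones included Tnfrsf11b, which encodes the RANKL decoy osteoprotegerin (324 to 360 CPM against 33.7 to 82.7 CPM, log2 2.57, SE 0.15), Cd40 (301 to 378 CPM against 63.7 to 109 CPM, log2 1.92, SE 0.11) and Tnf (log2 4.09, SE 0.33). The lower ones were the adaptor gene Traf5 (log2 −1.79, SE 0.23) and the lymphotoxin receptor gene Ltbr (log2 −1.25, SE 0.09).

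**Figure D2:**
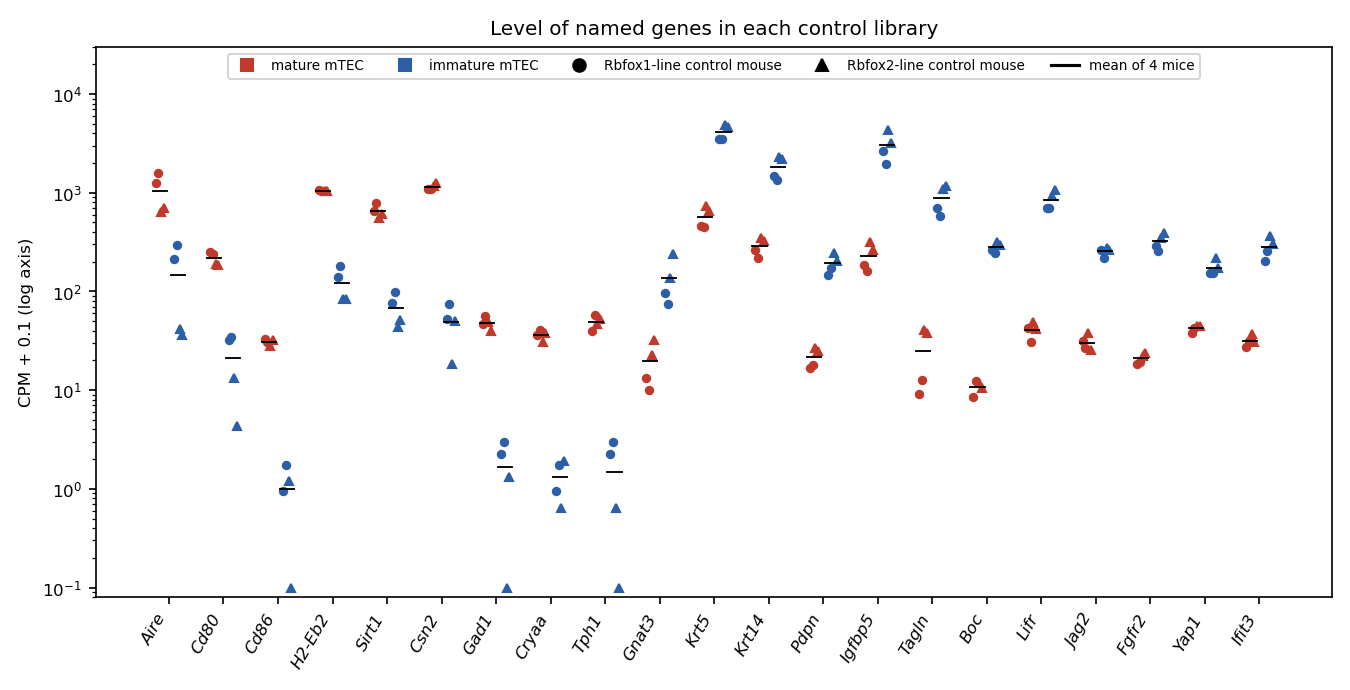
Level of 21 named genes in each control library, as CPM plus 0.1 on a log axis, with mature mTEC in red, immature mTEC in blue, Rbfox1-line mice as circles, Rbfox2-line mice as triangles and the mean of 4 mice as a bar. For Aire through Tph1 every mature value lies above every immature value, and for Gnat3 through Ifit3 every mature value lies below. Aire, Cd80, Sirt1, Krt5, Igfbp5 and Tagln are among the genes also split by line within each population.

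Transcripts of peripheral tissues were among the largest differences. Autoantigens were taken as 4 lists by organ. All 12 tested autoantigens of thyroid, adrenal, stomach and gut were higher (median log2 4.58), as were 6 of 9 of the endocrine pancreas (median 2.65), 9 of 12 of eye, nerve and muscle (median 1.23) and 6 of 10 of skin, kidney, lung and glands (median 1.76). A single autoantigen, Musk, the muscle receptor kinase, was called lower (log2 −1.18, SE 0.27). Tph1, the enzyme of gut serotonin synthesis, stood at 39.9, 57.4, 46.3 and 53.1 CPM in mature against 2.15, 2.86, 0.544 and 0 CPM in immature mTEC (log2 4.94, SE 0.31, edgeR adjusted p = 5.71e-08). Atp4b, a chain of the gastric proton pump, had 10.9, 19.7, 15.1 and 16.2 CPM in mature and no count in immature mTEC, at least 42.5-fold higher. Gad1, the GABA-forming decarboxylase, stood at 46.8, 55.9, 48.4 and 39.4 CPM against 2.15, 2.86, 0 and 1.21 CPM (log2 4.82, SE 0.29). Cryaa, a lens crystallin, stood at 30.7 to 40.6 CPM against 0.544 to 1.82 CPM (log2 4.88, SE 0.25). Ins2, which encodes insulin, was low even in mature mTEC, at 15.2, 8.74, 9.21 and 11 CPM against 0, 0.409, 0 and 1.21 CPM (log2 4.78, SE 0.55). These lists were drawn up with mTEC expression in mind, and only 9 to 12 of the 13 to 16 genes in each passed the filter on low counts, so their direction is a description.

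The 15 protein-coding genes with the largest differences on the mature side all had 0 counts in the 4 immature libraries, and their products belong to unrelated tissues. Itih3, a plasma protease inhibitor chain made in liver, had 23.2, 28.8, 25 and 19.7 CPM in mature mTEC, at least 66.9-fold higher. Its neighbour Itih1 was at least 54.8-fold higher. Gzmb, a granzyme of cytotoxic lymphocytes, had 20.6, 20.5, 22.0 and 19.2 CPM, at least 56.7-fold higher. Others of this group were the collagenase gene Mmp13 (at least 55.4-fold), the Wnt inhibitor gene Dkk1 (at least 51.9-fold), the Langerhans cell lectin gene Cd207 (at least 50.2-fold), the fibrinogen chain gene Fga (at least 48.5-fold), the chemokine gene Ccl1 (at least 48.6-fold) and Pou5f1, which encodes the pluripotency factor OCT4 (at least 46.1-fold). All of these were present in each of the 4 mature libraries, between 10.9 and 28.8 CPM. In the tKO mice the fitted log2 changes were 4.10 for Itih3, 3.83 for Itih1 and 4.53 for Fga, smaller folds than these bounds, and 5.87 for Gzmb and 6.60 for Ccl1.

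Multigene families spanned many tissues too. The caseins of milk were the most abundant example, with a summed level of 1155 to 1318 CPM in mature against 18.2 to 77.0 CPM in immature mTEC. Most of this was Csn2, at 1091, 1094, 1162 and 1250 CPM in mature against 51.9, 74.9, 18.5 and 49.8 CPM in immature mTEC (log2 4.58, SE 0.22, edgeR adjusted p = 7.55e-09). All 10 tested Bpi fold genes, which encode lipid-binding proteins of airway and mouth, were higher, as were 10 of 11 mucins, 15 of 22 kallikreins, 24 of 36 cytochromes P450, 12 of 14 acetylcholine receptor subunits, 10 of 13 glutamate receptor subunits, 12 of 18 calcium channel subunits and 16 of 23 interleukins. None of the Bpi, mucin, kallikrein or receptor genes was lower. Other families did not lean this way. Of 28 tested protocadherins 5 were higher and 11 lower, of 11 Sox factors 4 and 3, and of 9 troponins and tropomyosins 3 and 3. Of 18 tested Tex and Spata genes, named for testis and sperm, 3 were higher and 0 lower. Over all genes 22.6% were higher and 10.7% lower, but these shares depended on level. Among protein-coding genes averaging 1 to 5 CPM over both populations 64.5% were higher and 5.1% lower. Members that passed the count filter through the mature libraries alone could hardly be lower, so the family counts are a description. Kallikreins of the Klk1b series are near-identical copies whose reads may be split or lost in counting, so single members of that series are uncertain. Apob, the backbone of low-density lipoprotein, averaged 124 CPM in mature against 3.70 CPM in immature mTEC, whereas Apoe, another lipoprotein component, averaged 139 and 1749 CPM (log2 5.01 and −3.62).

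Families with few or no members high enough to be tested were counted after thinning. Of 1092 olfactory receptor genes, 109 to 170 had a count in a mature library and 10 to 21 in an immature library, and their summed level was 124 to 212 CPM against 15.2 to 21.6 CPM. Of 320 vomeronasal receptor genes, 26 to 33 were detected in mature and 2 to 3 in immature libraries. Of 22 major urinary protein genes, which are also near-identical copies, 11 to 15 were detected in mature and 0 to 1 in immature libraries. In these families no mature library overlapped an immature one. Few members could be tested. Of 3 tested olfactory receptors 1 was higher and 2 were not called, with a median log2 change of −0.22, so they did not share the direction of the detected numbers. Both of the 2 tested major urinary protein genes were higher, and no vomeronasal receptor could be tested. Taste receptors were the reverse, with 9 to 12 of 38 detected in mature and 23 to 28 in immature libraries. The 3 that could be tested were all lower, namely Tas2r102 (log2 −4.19, SE 0.46), Tas2r108 (log2 −2.66, SE 0.41) and Tas1r3 (log2 −1.27, SE 0.21). Protocadherins leaned the same way with overlap, at 43 to 48 of 68 detected in mature and 47 to 53 in immature libraries.

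Housekeeping families moved little. None of 71 cytosolic ribosomal protein genes passed 2-fold (median −0.25), nor did any of 73 mitochondrial ribosomal protein genes or 41 proteasome subunits. Of 12 reference genes none was called, with a median of 0.10. Of 299 tested zinc finger genes of the Zfp series 8 were higher (2.7%) and 43 lower (14.4%), with a median of −0.36. Over all genes 22.6% were higher and 10.7% lower, so only the share of higher genes stood well apart. Zfp36l1, which encodes an RNA-binding protein that speeds mRNA decay, averaged 61.1 CPM in mature against 519 CPM in immature mTEC (log2 −3.09).

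**Figure D3:**
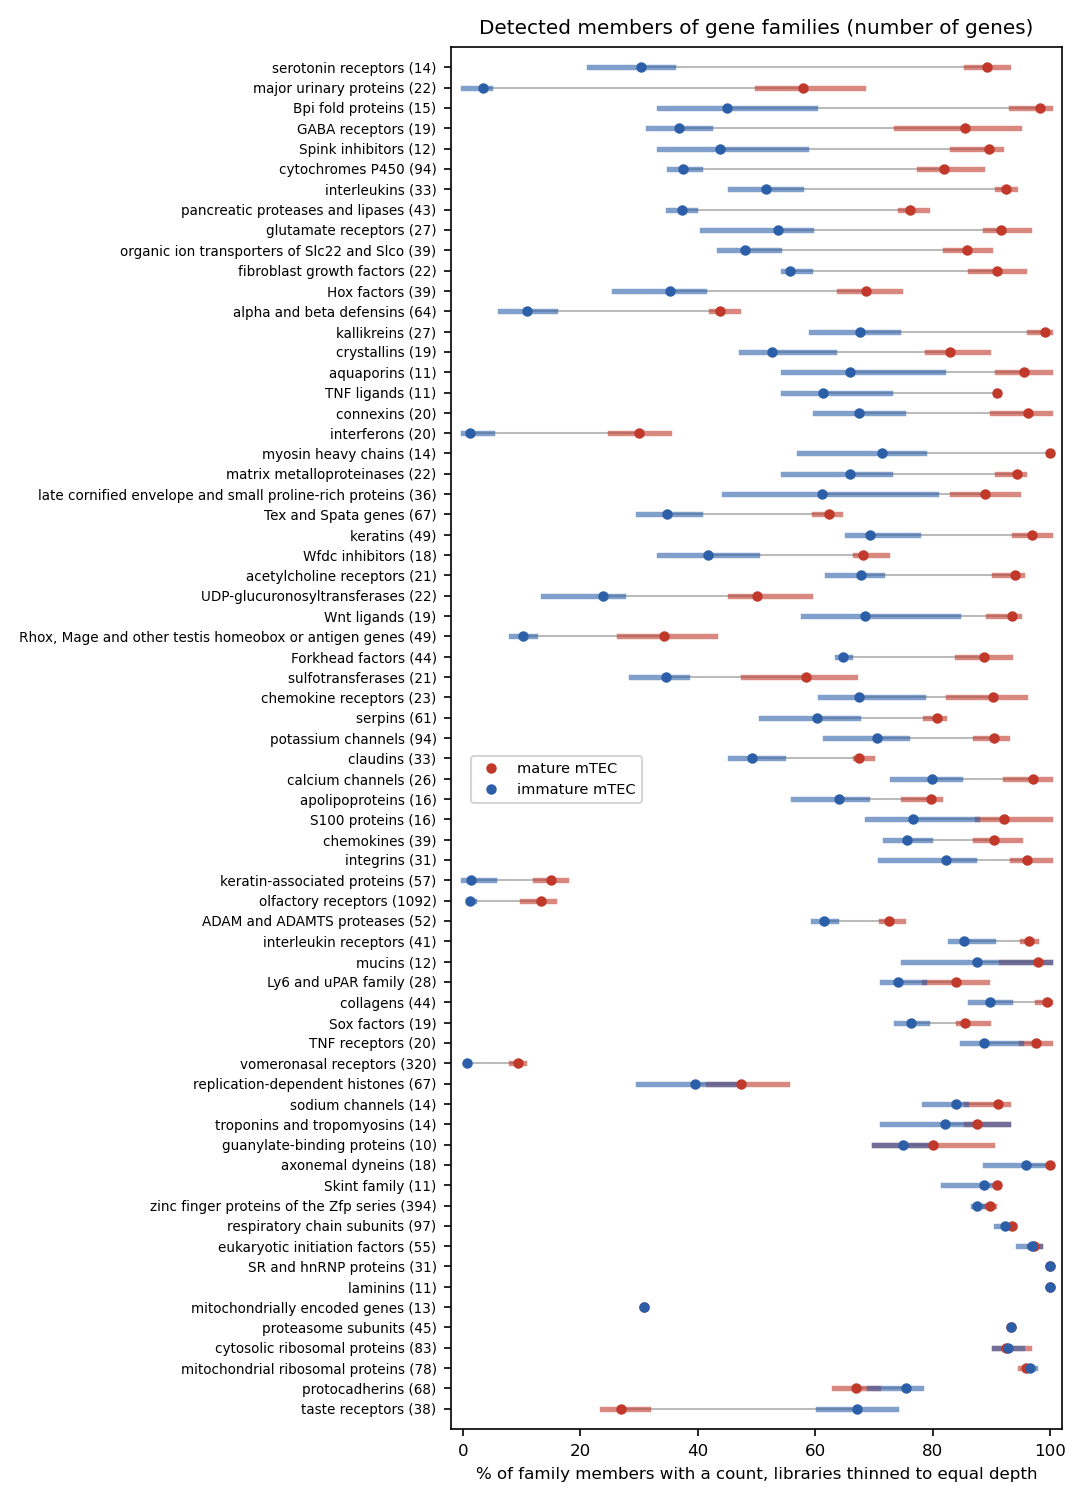
Share of the members of each gene family with at least 1 count in libraries thinned to 1740155 counts, with the mean of 4 control mice as a point and the lowest to highest library as a bar, red for mature and blue for immature mTEC, and the number of genes in parentheses. Most families of tissue-specific genes lie further right in mature mTEC, housekeeping families coincide, and taste receptors and protocadherins lie further right in immature mTEC.

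Genes higher in mature mTEC often stood beside one another on the chromosome. Of 3106 protein-coding genes called higher that could be placed, 1663 (53.5%) had a next or previous tested protein-coding gene that was also called higher. Of 1435 called lower 425 (29.6%) had a neighbour also called lower. The shares of single genes called higher and lower were 22.4% and 10.3%. Since a neighbour on either side counted, the shares expected by chance lie above these and were not computed. Gene families lie in arrays, so neighbours are often relatives and can share reads. The longest unbroken run was of 13 kallikreins at chr7:43841971-44220703 (GRCm38), from Klk5 to Klk1b5. The next was of 11 genes at chr5:86889767-88527891, which held the caseins Csn1s1, Csn2, Csn1s2a and Csn3 together with the enamel genes Amtn, Ambn and Enam. A run of 10 genes at chr2:153779931-154320646 held 9 Bpi fold genes, and a run of 8 at chr14:55941451-56262260 held mast cell proteases and granzymes.

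Lineage factors and markers of the specialised mTEC subtypes did not move together. Of 20 tested factors of endocrine, liver-like, gut, ciliated, muscle and other subtypes 10 were higher and 1 lower (median log2 1.18). Insm1, a factor of endocrine cells, stood at 357, 397, 414 and 371 CPM in mature against 128, 163, 57.1 and 56.5 CPM in immature mTEC (log2 1.99, SE 0.22), and Sox10, a neural crest factor, had a log2 change of 4.26 (SE 0.54). For both genes the groups did not overlap. Myog, the factor that drives muscle differentiation, was lower, with 6.22, 11.6, 14.6 and 19.2 CPM in mature against 30.0, 41.3, 21.2 and 32.2 CPM in immature mTEC (log2 −1.33, SE 0.25).

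Tuft cell genes were mostly higher in the immature gate. Thymic tuft cells sense bitter and sweet compounds through the taste pathway and release IL-25. Of 21 tested markers 11 were lower in mature mTEC and 2 higher, with a median of −1.27. Gnat3, the taste G protein, stood at 13.1, 9.83, 22.4 and 32.4 CPM in mature against 96.6, 74.1, 136 and 242 CPM in immature mTEC (log2 −2.82, SE 0.10, edgeR adjusted p = 8.69e-10). Plcb2, the phospholipase downstream of it, stood at 17.7 to 36.4 CPM against 76.4 to 143 CPM (log2 −2.08, SE 0.10), and Il25 had a log2 change of −2.08 (SE 0.43). The lineage factor Pou2f3 differed by less than 2-fold, with overlapping groups (29.9 to 49.1 CPM against 44.2 to 69.8 CPM, named after its values were seen). The 2 higher members, Hmx3 (log2 1.95, SE 0.21) and Gfi1b (log2 1.83, SE 0.38), encode transcription factors. Of 16 tested markers of keratinised post-Aire cells 1 was higher, Krt77 (log2 1.53, SE 0.12), and none was lower. Krt10, a keratin of cornifying epidermis, overlapped between the groups, with 292, 138, 371 and 349 CPM against 201, 121, 144 and 240 CPM.

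Immature mTEC had more of the transcripts of basal epithelium. Of 13 tested markers of immature mTEC 11 were lower in mature mTEC and none was called higher, with a median log2 change of −1.77. Krt5 and Krt14, the paired keratins of basal layers, were among the most abundant transcripts of the immature population. Krt5 stood at 463, 450, 727 and 655 CPM in mature against 3494, 3513, 4810 and 4661 CPM in immature mTEC (log2 −2.86, SE 0.06, edgeR adjusted p = 7.97e-11). Krt14 stood at 220 to 351 CPM against 1359 to 2315 CPM (log2 −2.66, SE 0.07). Igfbp5, an insulin-like growth factor binding protein, stood at 184, 160, 316 and 265 CPM against 2626, 1953, 4323 and 3204 CPM (log2 −3.70, SE 0.07). Pdpn, the mucin-like podoplanin, had a log2 change of −3.17 (SE 0.09).

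The chemokines that draw thymocytes and dendritic cells into the medulla were split between the populations. Ccl21a, the ligand of CCR7, stood at 3.0, 3.93, 5.43 and 7.98 CPM in mature against 115, 75.7, 117 and 101 CPM in immature mTEC (log2 −4.35, SE 0.19, edgeR adjusted p = 3.29e-09). Ccl21b (log2 −5.01, SE 0.16) and Gm10591 (log2 −4.63, SE 0.18) are near-identical copies of Ccl21a, so the 3 values are not separate evidence and the level of each is uncertain. Cxcl12 (log2 −3.16, SE 0.13) and the scavenging receptor gene Ackr4 (log2 −3.13, SE 0.17) were lower too. Ccl25, the ligand of CCR9, went the other way, at 404, 418, 496 and 464 CPM in mature against 51.5, 59.3, 66.4 and 49.2 CPM in immature mTEC (log2 2.97, SE 0.09). Over the whole family 18 of 29 tested chemokines were higher and 6 lower in mature mTEC. Il7, the survival cytokine of thymocytes, stood at 61.8 to 80.5 CPM against 298 to 436 CPM (log2 −2.27, SE 0.09).

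The largest differences on the immature side were in contractile, matrix and receptor genes. Tagln, an actin-binding protein of contractile cells, stood at 9.01, 12.4, 40.6 and 38.2 CPM in mature against 698, 575, 1084 and 1167 CPM in immature mTEC (log2 −5.26, SE 0.19, edgeR adjusted p = 8.58e-10). Myl9, a myosin light chain, had a log2 change of −4.89 (SE 0.13), and Mgp, a matrix protein that binds calcium, of −4.60 (SE 0.13). Boc and Gas1, co-receptors for hedgehog ligands, had log2 changes of −4.70 (SE 0.12) and −5.10 (SE 0.12). Lifr, the receptor chain for leukaemia inhibitory factor, stood at 42.7, 31.0, 48.9 and 41.1 CPM in mature against 707, 695, 920 and 1059 CPM in immature mTEC (log2 −4.36, SE 0.11). None of these groups overlapped, which held for 56.6% of all Ensembl genes tested. Of 25 tested genes of basal lamina and integrin adhesion 13 were lower and 5 higher (median −1.06). Whole families did not share this direction, with 12 higher and 5 lower of 24 tested integrins (median 1.04) and 12 higher and 11 lower of 38 tested collagens (median −0.21), while of 11 laminins 2 were higher and 6 lower. The laminin chains Lamb1 (55.9 to 64.6 CPM against 437 to 632 CPM, log2 −3.15, SE 0.12), Lamb3 (log2 −2.74, SE 0.08) and Lama3 (log2 −2.70, SE 0.09) led the lower ones. Nid1, which links laminin to collagen IV, was higher, at 95.4 to 111 CPM against 10.7 to 38.1 CPM (log2 2.0, SE 0.21).

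Genes of the Notch and of the TGF-beta and BMP pathways were more often lower than higher in mature mTEC. Of 21 tested Notch pathway genes 9 were lower (42.9%) and 4 higher (19%) in mature mTEC (median −0.86). Over all genes 10.7% were lower and 22.6% higher, so only the share of lower genes stood well apart. The ligand gene Jag2 stood at 31.1, 26.4, 38 and 25.7 CPM in mature against 264, 216, 276 and 261 CPM in immature mTEC (log2 −3.07, SE 0.10), and the target gene Hey1 had a log2 change of −2.80 (SE 0.14). The ligand gene Dll4 went the other way (log2 2.59, SE 0.19). Of 24 tested TGF-beta and BMP pathway genes 15 were lower (62.5%) and 5 higher (20.8%, near the share over all genes), with a median of −1.26. Among the lower ones were the receptor gene Tgfbr2 (11.8 to 13.7 CPM against 78.6 to 153 CPM, log2 −3.02, SE 0.14), the ligand gene Tgfb3 (log2 −2.75, SE 0.14) and the activin-binding inhibitor gene Fst (log2 −4.38, SE 0.16). The higher ones included the ligand chains Inhbb (log2 2.35, SE 0.12) and Bmp2 (log2 2.11, SE 0.14).

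YAP, a co-activator that responds to cell shape and works through TEAD factors, had its own transcript and 11 other members of its list lower in mature mTEC, out of 16 tested, with 2 higher and a median of −2.22. Yap1 stood at 37.5, 42.8, 45.1 and 44.9 CPM in mature against 154, 153, 218 and 173 CPM in immature mTEC (log2 −2.02, SE 0.09, named after its values were seen). F3, which encodes tissue factor, stood at 7.72 to 12 CPM against 103 to 118 CPM (log2 −3.60, SE 0.12), and the LIM protein gene Ajuba had a log2 change of −3.14 (SE 0.10). The target gene Ankrd1 ran against the rest of the list, with 6.14 to 7.51 CPM in mature against 0 to 0.409 CPM in immature mTEC (log2 5.48, SE 0.65).

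Genes of the EGF, FGF and Wnt pathways were found on both sides. Of 20 tested genes of the EGF and FGF pathways 9 were higher (45%) and 4 lower (20%), against 22.6% and 10.7% over all genes (median 0.90). Fgfr2, the epithelial receptor of the FGF7 group, stood at 18.4, 19.2, 22.2 and 23.9 CPM in mature against 292, 258, 348 and 395 CPM in immature mTEC (log2 −3.94, SE 0.09, edgeR adjusted p = 7.97e-11), and Egfr had a log2 change of −2.16 (SE 0.11). The EGFR ligands Areg (log2 3.42, SE 0.34) and Ereg (log2 2.33, SE 0.35) and the receptor gene Erbb4 (log2 4.28, SE 0.63) were higher, all from low levels. Of 29 tested Wnt pathway genes 6 were higher (20.7%) and 10 lower (34.5%), with a median of 0.04. The share of higher Wnt genes was near that over all genes. The receptor gene Fzd2 stood at 5.02 to 15.1 CPM in mature against 85.5 to 231 CPM in immature mTEC (log2 −4.24, SE 0.13), whereas the ligand genes Wnt7a (log2 4.04, SE 0.61) and Wnt3 (log2 3.97, SE 0.42) and the agonist gene Rspo1 (log2 4.33, SE 0.61) were higher in mature mTEC, all under 17 CPM.

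Interferon-stimulated genes, which act in antiviral defence, were mostly lower in mature mTEC. Of 26 tested 16 were lower and 2 higher, and the median log2 change was −1.52. Many such genes carry an interferon-stimulated response element close to their start. The motif GAAANNGAAA was searched on both strands of the 250 bases before the start of each gene in RefSeq promoters (GRCm38.p6). Of the list's 20 protein-coding members with a sequence 12 held it (60%), against 821 of 27025 genes overall (3.04%). It stood in 8 of 12 members that were lower and in 4 of 8 that were not, so its presence did not separate the members by direction. A match is a run of letters and not a measured binding site. The windows below, with every match in capitals (TTTCNNTTTC where it lies on the opposite strand), are those of 5 of the 8 lower members, chosen to show the motif on either strand. Isg15 has 3 matches and each of the others 2, and where matches overlap the capitals run on. They lie at chr4:156200847-156200936 (minus strand), chr19:34583367-34583456 (plus), chr3:142559965-142560043 (plus), chr5:120907526-120907585 (minus) and chr11:48871421-48871490 (minus).
Isg15: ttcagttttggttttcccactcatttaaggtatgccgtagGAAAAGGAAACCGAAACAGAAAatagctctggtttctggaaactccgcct
Ifit3: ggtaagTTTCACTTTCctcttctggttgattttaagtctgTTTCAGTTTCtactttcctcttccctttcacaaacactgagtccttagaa
Gbp3: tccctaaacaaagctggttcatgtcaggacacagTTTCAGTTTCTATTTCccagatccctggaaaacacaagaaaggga
Oas1a: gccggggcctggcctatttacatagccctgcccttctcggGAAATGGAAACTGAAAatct
Irgm1: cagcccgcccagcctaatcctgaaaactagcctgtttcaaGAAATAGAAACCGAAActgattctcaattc

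The genes of these windows kept the order of the populations in every mouse. Ifit3, which restrains viral RNA, stood at 27.2, 31.7, 36.6 and 30.7 CPM in mature against 204, 255, 363 and 301 CPM in immature mTEC (log2 −3.13, SE 0.10, edgeR adjusted p = 3.08e-10). Isg15, a ubiquitin-like modifier, stood at 47 to 57.9 CPM against 213 to 307 CPM (log2 −2.23, SE 0.12). Gbp3 (log2 −2.33, SE 0.09), Irgm1 (log2 −1.59, SE 0.09) and Oas1a (log2 −2.26, SE 0.44) completed the set, the last at under 10 CPM. Ifi44, which has no match in the window, had a change of the same order (log2 −3.09, SE 0.11). The chemokine genes Cxcl9 and Cxcl10, both inducible by interferon gamma, were the 2 higher members. Cxcl9 stood at 340, 334, 361 and 328 CPM in mature against 70.0, 64.7, 72.9 and 63.8 CPM in immature mTEC (log2 2.33, SE 0.08). The whole family of guanylate-binding proteins, to which Gbp3 belongs, had 3 higher and 2 lower of 6 tested (median 0.84).

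**Figure D4:**
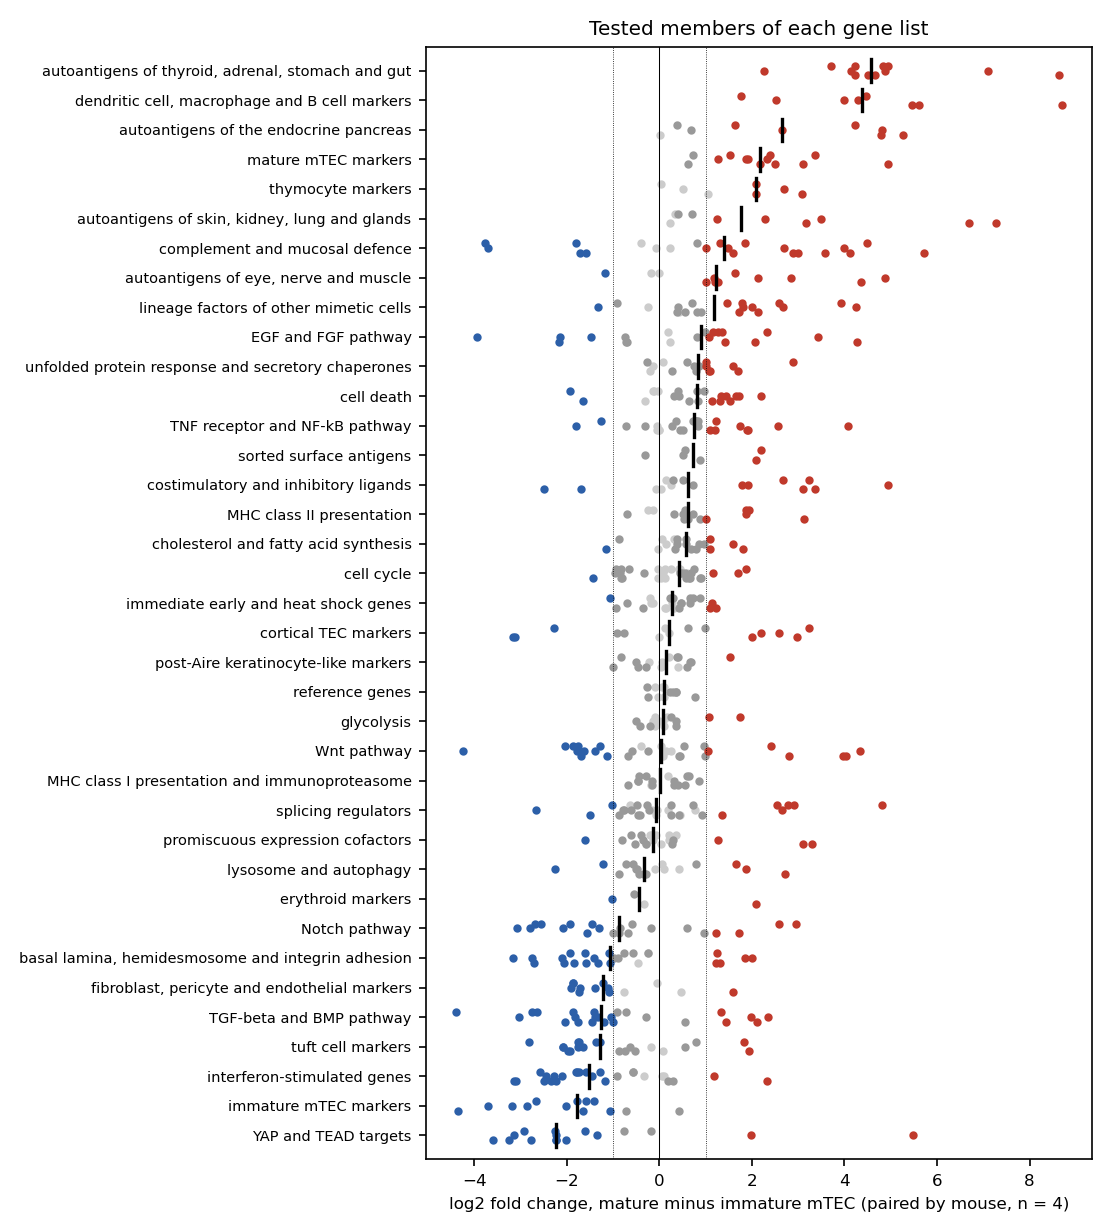
Log2 fold change of each tested member of each gene list, mature over immature mTEC in 4 control mice, with members called higher in red, called lower in blue, changed by less than 2-fold at an adjusted p under 0.05 in dark grey and the rest in light grey. The black bar is the list's median, which runs from 4.58 for autoantigens of thyroid, adrenal, stomach and gut to −2.22 for YAP and TEAD targets.

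Complement and mucosal defence genes fell on both sides, with 13 higher and 5 lower of 22 tested. The higher ones were led by the antimicrobial genes Camp (log2 5.72, SE 0.55), S100a8 (on average 100.3 CPM against 4.31 CPM, log2 4.49, SE 0.22) and Slpi (log2 4.12, SE 0.24). The lower ones were led by the first proteases of the classical complement pathway. C1ra stood at 9.22, 11.4, 11.8 and 9.23 CPM in mature against 112, 107, 191 and 169 CPM in immature mTEC (log2 −3.76, SE 0.14), and C1s1 had a log2 change of −3.70 (SE 0.12). C3, the component on which the pathways converge, stood at 1238, 905, 1184 and 1138 CPM against 2830, 2373, 5300 and 4962 CPM (log2 −1.72, SE 0.14).

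Secretory chaperones and cell death genes were higher in part. Of 17 tested genes of the unfolded protein response 7 were higher and none lower (median 0.83), among them Hspa5, the main chaperone of the endoplasmic reticulum, with 2543 to 2686 CPM in mature against 1009 to 1330 CPM in immature mTEC (log2 1.09, SE 0.07). Trib3, a stress-induced pseudokinase, had a log2 change of 2.89 (SE 0.24). Of 21 tested cell death genes 8 were higher (38.1%) and 2 lower (9.5%, near the share over all genes), with a median of 0.81. Pmaip1, which encodes the pro-apoptotic NOXA, stood at 151 to 156 CPM against 24.5 to 45.0 CPM (log2 2.20, SE 0.13), and Fas stood at 105 to 123 CPM against 28.8 to 44.2 CPM (log2 1.65, SE 0.11). The survival gene Bcl2 was lower (log2 −1.65, SE 0.12). Of 19 cholesterol and fatty acid synthesis genes 4 were higher and 1 lower, of 20 lysosome and autophagy genes 3 were higher and 2 lower, of 15 glycolysis genes 2 were higher, and of 24 immediate early and heat shock genes 3 were higher and 1 lower. The medians of these 4 lists lay between −0.33 and 0.57. In none of the 4 did the shares exceed those over all genes (22.6% higher and 10.7% lower).

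Splicing regulators are the subject of the parent study. Of 30 tested 6 were higher and 3 lower, close to the shares over all genes (22.6% and 10.7%), with a median of −0.06. The higher ones were regulators best known from neurons, led by Rbfox3 (17.4, 20.8, 14.2 and 18.5 CPM in mature against 0, 1.64, 0 and 0.607 CPM in immature mTEC, log2 4.82, SE 0.46), Elavl3 (log2 2.92, SE 0.36) and Celf6 (log2 2.78, SE 0.44). The lower ones were Rbm24, a regulator of muscle splicing (log2 −2.66, SE 0.27), Rbfox1 and Celf2 (log2 −1.01, SE 0.08), the last of which fell within 2-fold under other scalings. Of 30 SR and hnRNP genes, the general splicing proteins, 1 was called, Srsf12 (log2 −2.49), which was lower.

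Markers of cells that the gate should have removed were also measured. Of 13 markers of dendritic cells, macrophages and B cells 8 could be tested and all 8 were higher in mature mTEC (median 4.37), and the summed level of the list was 322 to 411 CPM in mature against 23.8 to 28.7 CPM in immature libraries. Csf1r, the receptor of macrophage growth factor, stood at 35.0, 30.1, 29.3 and 29.7 CPM in mature against 3.0, 0.819, 0.544 and 1.82 CPM in immature mTEC (log2 4.29, SE 0.29), and Lyz2 made up much of the sum, at 183 to 269 CPM against 12.1 to 15.1 CPM. Of 13 thymocyte markers 7 could be tested and 4 were higher, with sums of 86.6 to 95.7 CPM against 16 to 58.8 CPM. Cd4 stood at 28.8 to 32.1 CPM against 2.18 to 10.2 CPM (log2 2.69, SE 0.29), and Rag1 reached at most 19 counts in any library. Ptprc, which encodes the CD45 used for depletion, stood at 12.4, 10.05, 10.9 and 11.7 CPM against 0.858, 5.32, 2.18 and 1.82 CPM (log2 2.1, SE 0.39). Several genes named above among those higher in mature mTEC, such as Gzmb, Cd207, Ccl1, Cd86, Cd83 and Tnf, are also genes of blood cells, and the part of blood cells in their values was not tested. Cortical epithelial markers showed no shared direction, with 5 higher (33.3%) and 3 lower (20%) of 15 tested, against 22.6% and 10.7% over all genes. Of 4 erythroid markers tested 1 was higher, Alas2 (log2 2.1, SE 0.30), and 1 lower, Hbb-bs (log2 −1.03, SE 0.27), which fell within 2-fold under other scalings.

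Fibroblast, pericyte and endothelial markers were higher in immature mTEC and differed by line. Of 13 tested 9 were lower in mature mTEC and 1, Pdgfrb (log2 1.59, SE 0.21), was higher. Their summed level was 1217 to 1449 CPM in the 4 mature libraries, 1881 and 2191 CPM in the immature libraries of the Rbfox1 line and 3725 and 3644 CPM in those of the Rbfox2 line. Col3a1, a fibrillar collagen, stood at 72.3, 94.6, 97.8 and 85.0 CPM in mature against 92.3, 200, 739 and 598 CPM in immature mTEC (log2 −1.86, SE 0.34), and the groups overlapped. In the Rbfox1-line mice alone the change of Col3a1 was −0.77, and with a robust estimate of the prior in edgeR the call over the 4 mice was lost (adjusted p = 0.079). Dcn, a matrix proteoglycan of fibroblasts, stood at 83.4 to 112 CPM against 143, 177, 553 and 582 CPM. Most of these markers, like the matrix and contractile genes described above, were higher in immature mTEC, and their part in those results was not tested. By line, the median log2 change of the markers was −0.38 in the Rbfox1 and −2.04 in the Rbfox2 line. That of Tagln was −5.89 and −4.82. Tagln, Krt5, Krt14, Boc and Lifr differed by over 4-fold in the mice of either line alone.

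Whether the difference between the populations was the same in the 2 lines was tested as an interaction. Of 15357 rows 522 (3.4%) had an adjusted p under 0.05, 313 with a more positive and 209 with a more negative change in the Rbfox2 line. The 5 rows with the smallest adjusted p were all matrix genes, namely Postn, Col6a3, Col1a2, Bgn and Col3a1. Postn, a matrix protein of fibroblasts, stood at 56.6, 60.3, 96.8 and 84.3 CPM in mature against 74.7, 98.6, 615 and 674 CPM in immature mTEC. The log2 change of Postn was −0.57 in the Rbfox1 line and −2.81 in the Rbfox2 line, an interaction of −2.26 (SE 0.15, edgeR adjusted p = 3.30e-10). Aire had the opposite sign of interaction, with log2 changes of 2.47 in the Rbfox1 line and 4.11 in the Rbfox2 line (interaction 1.63, SE 0.15, edgeR adjusted p = 3.06e-08). Both lines had more Aire in mature mTEC. In DESeq2 112 rows had such an interaction, and without 1 or the other Rbfox2-line mouse edgeR gave 109 (without replicate 1) and 135 (without replicate 2). Each line had 2 control mice, so line cannot be told apart from the litter, the sort or the library preparation of those mice.

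**Figure D5:**
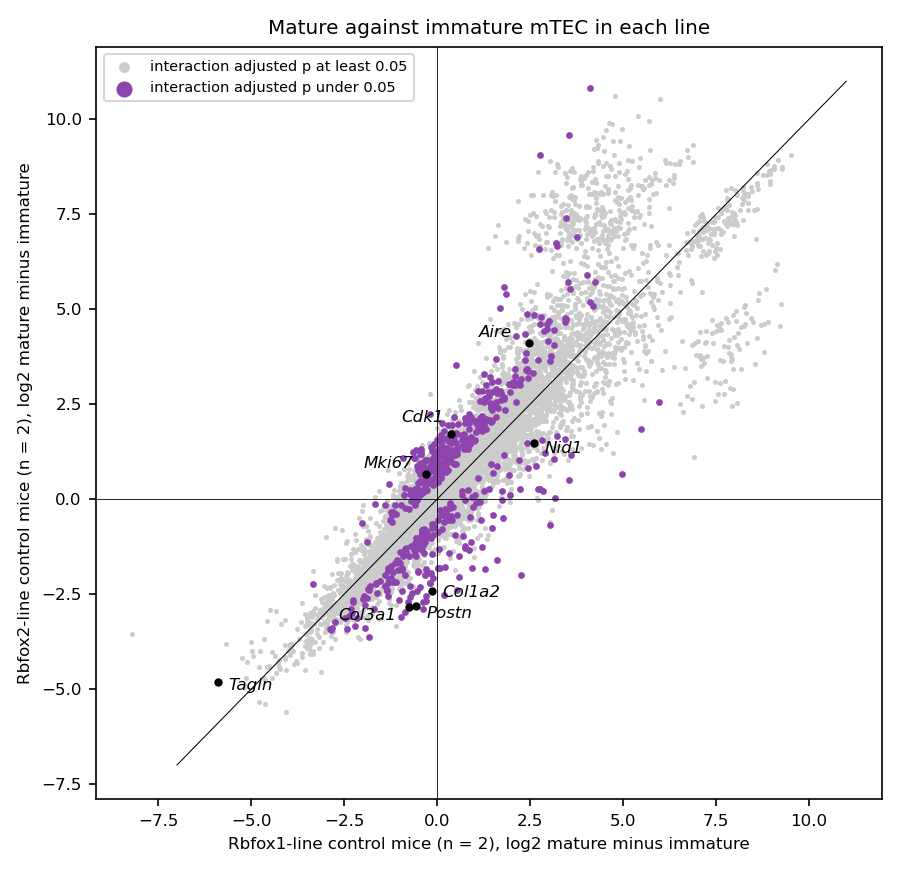
Log2 fold change of each tested row, mature over immature mTEC, in the 2 control mice of the Rbfox1 line (horizontal axis) and of the Rbfox2 line (vertical axis), with the 522 rows that have a line interaction at an adjusted p under 0.05 in purple. Most rows lie near the diagonal, Aire and cell cycle genes above it and the matrix genes Postn, Col1a2 and Col3a1 below it, and the loose clouds at large changes hold genes without a count in the immature libraries of 1 or both lines.

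Line interactions were also found in several other lists, against 3.4% of all rows. They were found for 12 of 25 basal lamina and integrin genes, 6 of 13 mature mTEC markers, 5 of 20 lineage factors and 10 of 24 immediate early and heat shock genes. The summed level of the immediate early and heat shock genes, which can respond to tissue dissociation, was 4102 and 4673 CPM in mature libraries of the Rbfox1 line, 6004 and 5414 CPM in those of the Rbfox2 line and 3700 to 4187 CPM in the immature libraries. The part of these genes in the other line differences was not tested. Of 33 tested cell cycle genes 3 were higher and 1 lower over all 4 mice (median 0.42), and 19 of the 33 had a line interaction. The higher ones were the cyclin-dependent kinase inhibitors Cdkn2b (66.8 to 84.3 CPM against 15.2 to 24.9 CPM, log2 1.86, SE 0.15), Cdkn2a (log2 1.69, SE 0.16) and Cdkn1a (log2 1.17, SE 0.10), and the lower one was the cyclin gene Ccnd1 (log2 −1.42, SE 0.08). The median of the list was −0.14 in the Rbfox1 line and 0.96 in the Rbfox2 line. Its summed level was 3004 to 3256 CPM in the mature libraries, 3300 and 3904 CPM in immature libraries of the Rbfox1 line and 2024 and 2193 CPM in those of the Rbfox2 line. The immature libraries thus lay on either side of the mature ones according to line.

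For sex and genotype no interaction passed the threshold. No row had a sex by population interaction at an adjusted p under 0.05 in edgeR or in DESeq2, with 249 rows (1.62%) at an unadjusted p under 0.05 in edgeR. No row of 15015 had a genotype by population interaction over all 16 libraries by either tool, with 529 rows (3.52%) at an unadjusted p under 0.05 in edgeR. With 2 mice of each sex and 4 of each genotype, these counts limit what could be seen and do not show that the groups are alike. In the 4 tKO mice, which share no library with the controls, 3179 of the 3180 higher genes that could be tested there had the same direction, as had 1557 of 1558 lower genes. Aire had a log2 change of 3.36 in tKO and 3.11 in control mice, Krt5 of −2.94 and −2.86, Csn2 of 4.76 and 4.58 and Ifit3 of −3.48 and −3.13.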

How the data were processed

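RNA was measured in mature and immature mTEC of 8 mice, 16 libraries in all, of which the 8 control libraries are described. The authors deposited 1 table of raw read counts per gene. By the study's methods they aligned stranded, paired-end poly(A) reads to mm10 with HISAT2 2.1.0 and removed duplicates with Picard 2.10.9. They then down-sampled the alignments and counted reads with featureCounts 1.6.0 over Ensembl genes and assembled loci. The assembly that the paper describes was built from mTEC and peripheral tissues. The sources used here do not give the strand setting of the counting, so overlapping and antisense genes are uncertain. Of the table's 89407 rows 53464 were Ensembl genes, 53360 of which were named from GENCODE M21 (GRCm38), and 35943 were assembled loci.

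Counts were analysed with edgeR 4.0.16 in R 4.3.3: filterByExpr with a minimum count of 10, TMM scaling, a quasi-likelihood fit with population and mouse as terms, and Benjamini-Hochberg adjustment over 15357 rows. A call needs an adjusted p under 0.05 and a change over 2-fold. The mouse pairs the samples by construction, and the deviations of the 2 populations of a mouse correlated at 0.297 and 0.194 in the 2 lines. Line, sex and genotype were tested as interactions with population. In simulated counts 88% of 92 genes changed 2-fold and 100% of 94 changed 4-fold had an adjusted p under 0.05 in the main comparison, and 56 of the 92 also passed the fold threshold. For the line interaction 36.1% of 97 and 83.8% of 99 genes were recovered. The simulation gave every gene the same dispersion and each mouse a shift shared by both populations. Recovery in the measured counts may therefore differ, and the share of unchanged genes called is not given here. Depth bounds the precision: 3 counts equal 0.647 to 0.745 CPM in a mature and 1.23 to 1.72 CPM in an immature library. Summed levels of lists are CPM of the library total. Alternatives were DESeq2 1.42.0, other scalings, filters, thresholds, thinned counts, no pairing, all 16 libraries, each mouse left out and, added later, each line alone and a robust prior. Figures and tables were made in Python 3.11.15 with numpy 2.4.6 and pandas 2.3.3.

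Genes were named by rule: per list or family, up to 3 called members a direction with the largest change and the most abundant members, the 15 protein-coding genes with the largest change in each direction at 10 CPM or more, the 5 most abundant genes per population, Rbfox1 and Rbfox2, and the 5 rows with the smallest adjusted p of each interaction. Zfp36l1, Fas, Gbp3, Dcn, Csf1r and any other gene outside these rules were picked with their values in view. The members and lists were chosen with earlier results of these data known.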

Additional observations from a re-analysis of the deposited data

Results flagged for a closer look

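The difference between mature and immature mTEC itself differed between the 2 lines for 522 rows by the edgeR interaction test. Among the genes named above, 23 had such an interaction, given here as the log2 change in the Rbfox2-line mice minus that in the Rbfox1-line mice. Genes of maturation and tissue antigens had positive values: Aire 1.63, Cd80 1.51, Insm1 1.41, Csn2 1.07, H2-Eb2 0.92, Tnfrsf11b 0.89, Sirt1 0.57, Krt77 0.55, Fezf2 0.52 and Ubd 0.43. Myog (1.36) and Tagln (1.05), which were lower in mature mTEC, also had positive values. Matrix genes and Pdgfrb, a receptor of pericytes, had negative values: Col6a3 −3.15, Col1a2 −2.30, Postn −2.26, Col3a1 −2.1, Bgn −2.02, Dcn −1.5, Pdgfrb −1.19, Nid1 −1.16 and Lamb1 −0.62. The defence genes C3 (−0.85) and Fcgbp (−0.43) were negative too. Each value rests on 2 mice per line.

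In 11 of 282 groups of 4 libraries of a named gene, 1 library stood apart from the other 3 by Dixon's ratio of its gap to the group's range. Chance flags about 1 in 20 groups, 14.1 of these. In mature mTEC the ratio was 0.948 for Tgfb3 (a high value in Rbfox2-line replicate 1), 0.874 for Cdkn1a (low in Rbfox1-line replicate 3), 0.882 for Ereg (low in Rbfox2-line replicate 1) and 0.849 for Csf1r (high in Rbfox1-line replicate 2). In immature mTEC the ratio was 0.953 for Gm10591 (low in Rbfox1-line replicate 2), 0.944 for Inhbb (low in Rbfox1-line replicate 3), 0.934 for Dll4, 0.930 for Oas1a (both high in Rbfox2-line replicate 1) and 0.902 for Areg (low in the same library), 0.879 for Hspa5 (low in Rbfox2-line replicate 2) and 0.851 for Csn3 (high in the same library).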

How the results depend on the processing

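The count of 4977 called Ensembl genes (3375 higher, 1602 lower) became 2128 (1045 higher, 1083 lower) among genes with at least 10 counts in every library, where genes near 0 in immature mTEC could not enter, 9638 (5136 higher, 4502 lower) with no fold threshold, and 5537 higher with no filter on low counts. Without the mouse as replicate block it was 4972, so the pairing hardly moved it, and a fit of all 16 libraries gave 4769. Leaving out each mouse gave 4988 to 5131 (higher 3386 to 3525, lower 1600 to 1712). DESeq2 gave 4861, and no gene called in both had opposite signs. The 522 line interactions became 112 in DESeq2, and 109 to 519 without each mouse (109 and 135 without Rbfox2-line replicates 1 and 2). The sex interaction gave 0 to 6 without each mouse, with 6 without Rbfox2-line replicate 1. The genotype interaction gave 0 with or without the replicate block. The cause of these shifts was not tested except where the filter or threshold sets it. Of 151 named genes 140 kept their call under every alternative run. Postn and Col3a1 lost theirs with a robust estimate of the prior, added after seeing the data (edgeR adjusted p 0.093 and 0.079), and Bgn and Col1a2 with it (0.148 and 0.163) and in DESeq2 (0.072 and 0.086). In the Rbfox1-line mice alone these 4, Dcn and Hspa5 fell within 2-fold and Col6a3 turned direction (1.28), and Myog fell within 2-fold in the Rbfox2-line mice. Celf2 and Hbb-bs fell within 2-fold under 7 alternatives each, H2-Aa passed it under 1. Depth limits low genes most, since immature libraries had fewer counts.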
